A study of Homo sapiens with 12 samples.

Results

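The bone morphogenetic protein (BMP) pathway was examined through 10 genes of 63677 identifiers counted, chosen by name: the secreted antagonists NOG (noggin) and GREM1, the ligands BMP2 and BMP4, the type I receptor BMPR1A, the inhibitory SMAD6 and the target genes ID1, ID2, ID3 and ID4. They were listed with differences of these libraries already known, those between primed and control cells among them, so the comparison of GTA+5-Aza with Con describes the 10 genes and does not test them. The comparison of CPT+GTA+5-Aza with CPT shares no library with it. It belongs to the same series and has the same contrast of priming, so its p-values are not independent of that choice. All 10 identifiers were in GENCODE v44, and 7 of the 10 were abundant enough to be tested among the 17123 genes that passed a filter on low counts. The 3 left out were GREM1, BMP2 and BMP4. ID4 passed that filter only through the primed libraries, where it was high. The cells were MiaPaca2, an established human pancreatic ductal adenocarcinoma line, so every library is a culture of that line. Con cells received DMSO, CPT cells received calcipotriol, a Vitamin D analogue, at 1 µM, GTA+5-Aza cells were primed with glyceryl triacetate at 2 mM and 5-Aza-2′-deoxycytidine at 1 µM, and CPT+GTA+5-Aza cells received the 3 agents, each for 24 h with 3 libraries per group. GTA is a source of acetate for histone acetylation and 5-Aza an inhibitor of DNA methylation, and as both primed groups received both agents, their contributions cannot be told apart.

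BMP ligands bind a complex of type I and type II receptors on the cell surface, which phosphorylates SMAD1, SMAD5 and SMAD9, and these enter the nucleus with SMAD4. Noggin and gremlin hold the ligand away from its receptors outside the cell, and SMAD6 blocks the signal inside it. The ID genes are the best known targets of the pathway, and the ID proteins, which lack a DNA-binding region, capture E proteins such as TCF3 and keep them from DNA, a switch linked to undifferentiated states in many epithelia and tumors.

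The 4 ID genes lie on different chromosomes, with ID2 lower and ID4 higher in primed cells, and their start regions are shown because CG dinucleotides are the bases that carry DNA methylation. Each sequence is the 250 bases before the RefSeq transcription start on GRCh38.p14, written 5′ to 3′ on the strand of the gene, with every CG in capitals. The windows are chr20:31605039-31605288 (+) for ID1, chr2:8681806-8682055 (+) for ID2, chr1:23559502-23559751 (-) for ID3 and chr6:19837120-19837369 (+) for ID4.
ID1: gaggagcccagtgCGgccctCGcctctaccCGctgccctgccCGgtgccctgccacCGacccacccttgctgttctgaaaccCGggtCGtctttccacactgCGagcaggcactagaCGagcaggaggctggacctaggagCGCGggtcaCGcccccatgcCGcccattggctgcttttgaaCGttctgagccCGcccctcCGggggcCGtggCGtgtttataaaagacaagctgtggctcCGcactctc
ID2: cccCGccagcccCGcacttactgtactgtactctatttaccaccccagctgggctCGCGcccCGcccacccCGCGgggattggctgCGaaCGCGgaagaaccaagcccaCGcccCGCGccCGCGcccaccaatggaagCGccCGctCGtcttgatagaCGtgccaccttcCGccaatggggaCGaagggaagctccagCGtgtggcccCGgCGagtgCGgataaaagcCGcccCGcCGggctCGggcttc
ID3: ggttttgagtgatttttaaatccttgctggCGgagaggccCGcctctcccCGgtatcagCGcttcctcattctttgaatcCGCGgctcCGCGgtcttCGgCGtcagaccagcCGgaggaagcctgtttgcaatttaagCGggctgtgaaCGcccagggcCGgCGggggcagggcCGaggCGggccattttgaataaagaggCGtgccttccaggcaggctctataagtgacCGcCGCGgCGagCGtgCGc
ID4: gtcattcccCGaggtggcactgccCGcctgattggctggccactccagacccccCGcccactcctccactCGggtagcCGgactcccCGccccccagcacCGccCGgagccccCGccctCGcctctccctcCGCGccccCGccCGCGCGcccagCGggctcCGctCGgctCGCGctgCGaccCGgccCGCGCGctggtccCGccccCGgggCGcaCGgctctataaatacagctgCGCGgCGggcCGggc

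The ID4 window held 34 CG dinucleotides, more than 93.2% of the 35116 RefSeq windows of that length. The ID2 window held 29, the ID3 window 24 and the ID1 window 19, where the median window held 11 and the upper quartile was 23. Outside the ID genes, the GREM1 windows held 32 and 23, the BMP4 windows 25, 17 and 27, the SMAD6 window 25 and the BMPR1A window 9. A link between the number of CG and the RNA levels was not tested. No DNA methylation was measured in these libraries. The letters GGCGCC, which SMADs activated by BMP are known to bind, occurred on either strand in 16.4% of all windows and in none of the 4 ID windows, which says only that these letters are absent from these 250 bases. The letters ATTGGC, the reverse of a CCAAT box, occurred in 13.8% of all windows, 2 times in that of ID2 and 1 time each in those of ID1 and ID4, both strands searched. Outside the ID genes, GGCGCC occurred 2 times in the first GREM1 window and 1 time in the first BMP4 window. ATTGGC occurred 1 time in that GREM1 window. The letters TATAAA, in 10.7% of all windows, occurred 2 times in that of ID1 and 1 time each in those of ID4 and BMPR1A. Of the 10 genes, 8 had a RefSeq window, and NOG and BMP2 had no entry.

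SMAD6 carried the palindrome GTCTAGAC, another SMAD binding sequence, which ended 4 bases before its start and occurred in 0.182% of all windows on either strand. Binding of SMADs was not measured in these libraries. It is shown in capitals within chr15:66702194-66702235 (+), the end of the SMAD6 window.
SMAD6: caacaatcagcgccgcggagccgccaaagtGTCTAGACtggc

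Total counts ran from 16162490 to 21224665 per library. Replicates of a group differed by 3.99 to 18.1 chi-square units per degree of freedom over genes, so none was a copy of another, and the widest gap was between CPT replicates 2 and 3. The study's methods call the samples of an experiment independent, while the labels do not say whether these replicates came from separate cultures, and p-values measure the spread between these libraries. The label of the line was checked against markers: KRT8, an epithelial keratin, stood at 1540 ± 54.8 counts per 1e6 scaled counts (CPM) in Con and VIM at 6202 ± 62.1 CPM (SD, n = 3), while the epithelial genes EPCAM and CDH1 had at most 4 counts in any library. Of 7 ductal markers 5 were tested. With priming in the presence of CPT, 3 of these 5 passed, KRT18, KRT19 and SOX9, all higher, where 17.0% of all genes passed. By edgeR's quasi-likelihood test the adjusted p was close to 0.05 for KRT18 (0.0436) and KRT19 (0.0472). KRT8 (adjusted p = 0.379) and KRT7 (0.0776) did not pass. KRT8 and KRT18 made up most of the sum of the list, at 1563 and 738 CPM in CPT. The summed list was at 2244 to 2685 CPM in CPT and 2700 to 2797 CPM in CPT+GTA+5-Aza, and VIM fell from 6325 ± 261 to 5584 ± 149 CPM (adjusted p = 0.00158). Endocrine markers (4 of 4) had no count in any library, as did 5 of 6 acinar and 3 of 4 endothelial markers. The fibroblast list summed to 689 to 945 CPM, nearly all of it COL1A2, with LUM at 0 and DCN at 3 counts or fewer. Its sum was 689 to 764 CPM in CPT and 815 to 843 CPM in CPT+GTA+5-Aza. Of its 6 genes 3 were tested, and 2 of these passed with priming in the presence of CPT, COL1A1 and COL1A2, both higher, beside the same 17.0% of all genes. COL1A1 was at 0.13 ± 0.13 CPM in CPT and 1.44 ± 0.46 CPM in CPT+GTA+5-Aza. It had 1 to 4 counts per library in Con and 1 to 5 in CPT, against 21 to 32 in CPT+GTA+5-Aza. COL1A1 thus passed the filter on low counts only through the primed libraries, and its call adds no support beyond these counts. The part of the ductal, VIM and fibroblast values in the results on priming was not tested. CYP24A1, the classical Vitamin D target, had 2 counts in 1 CPT+GTA+5-Aza library and 0 in the other 11, and the Vitamin D receptor gene VDR was at 1.54 ± 0.08 CPM in Con, 1.24 ± 0.17 in CPT, 2.21 ± 0.58 in GTA+5-Aza and 1.41 ± 0.16 in CPT+GTA+5-Aza, and passed in neither priming comparison.

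Noggin doubled with priming whether or not calcipotriol was present, ID4 appeared, ID2 fell and ID1 did not pass the test. In CPT+GTA+5-Aza against CPT, 3 of the 7 genes tested had a Benjamini-Hochberg adjusted p under 0.05 in the edgeR quasi-likelihood fit of the whole table, namely NOG and ID4 (higher) and ID2 (lower), where 17.0% of all genes tested passed, 9.57% higher and 7.39% lower. NOG and ID4 also met the study's rule, which asks for more than a 1.5-fold difference with P under 0.05 before adjustment, as did 8.67% of all genes. ID4 entered these counts only because its primed libraries passed the filter on low counts. In GTA+5-Aza against Con, whose values were known when the genes were listed, 5 of the 7 passed the adjusted threshold, NOG, ID3 and ID4 higher and BMPR1A and ID2 lower, beside 17.5% of all genes, 9.95% higher and 7.53% lower. That count fell to 3 without Con replicate 1, GTA+5-Aza replicate 1 or GTA+5-Aza replicate 3, when 11.6%, 11.6% and 10.8% of all genes passed. In the comparison with CPT present it rose to 6 without CPT replicate 2, when 21.3% of all genes passed. In RNA from whole cultures, fewer cells of a type and less RNA per cell cannot be told apart.

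NOG (ENSG00000183691, chr17:56593699-56595611) had 356, 467 and 413 counts in the Con libraries and 344, 534 and 387 in the CPT libraries. It had 852, 878 and 762 counts in the GTA+5-Aza libraries and 844, 810 and 817 in the CPT+GTA+5-Aza libraries. Every primed library lay above every unprimed one, and CPT replicate 2 was the highest unprimed library. Scaled to library size, NOG stood at 20.4 ± 1.78 CPM in Con, 22.1 ± 3.77 in CPT, 44.2 ± 1.26 in GTA+5-Aza and 46.9 ± 2.83 in CPT+GTA+5-Aza (SD, n = 3). With CPT present, NOG rose 2.12-fold, a log2 fold change of 1.08 ± 0.11 (SE, adjusted p = 1.42e-07), and its log2 fold change without CPT was 1.12 ± 0.11. The difference between these log2 fold changes was -0.04, with a 95% interval of -0.36 to 0.29. Among the genes whose log2 CPM followed that of NOG most closely over the 12 libraries were RAB6B (Pearson r = 0.988) and TNFRSF10A (0.982), a description over libraries that share the 2-level contrast of priming.

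**Figure D1:**
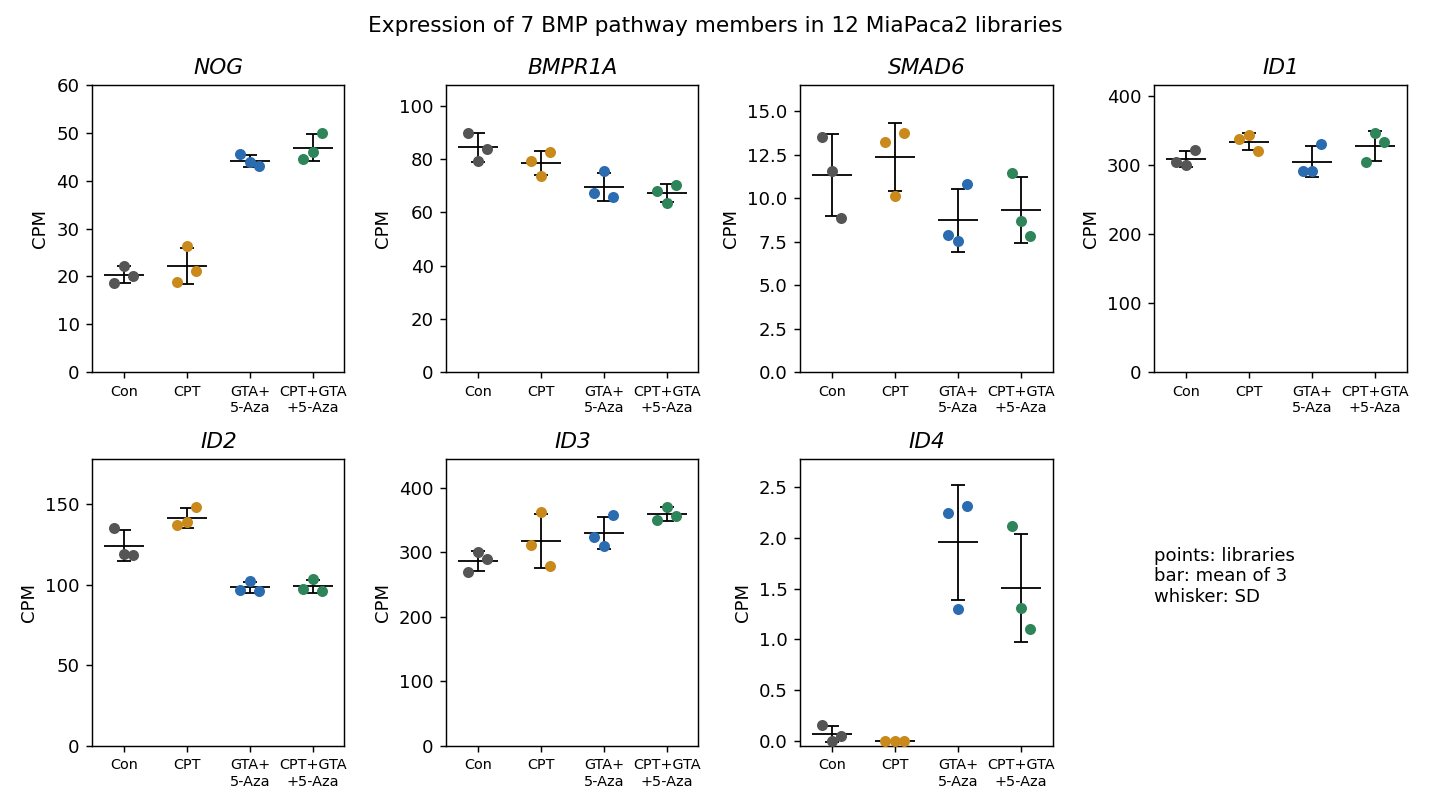
CPM (vertical axes, linear, one scale per gene) of the 7 genes tested in the 12 libraries by group (horizontal axis), with points for libraries, and bars for the mean and SD of 3 libraries. The 6 primed libraries of NOG lie between 43.02 and 50.03 CPM and the 6 unprimed ones between 18.72 and 26.27, ID4 is near 0 in unprimed cells, and the groups of ID1 overlap.

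GREM1 (chr15:32718004-32745106), which encodes the antagonist gremlin, was close to undetected, with 1 count in 1 GTA+5-Aza library, 1 count in 1 CPT+GTA+5-Aza library and 0 in the other 10. BMP4 (chr14:53949736-53958761) had 4, 8 and 0 counts in the GTA+5-Aza libraries and 0 in all libraries of the other 3 groups. BMP2 (chr20:6767686-6780246) had 4 counts in 1 GTA+5-Aza library, 1 in 1 CPT+GTA+5-Aza library and 0 elsewhere. No fold change is given for these 3 genes, since a count of 0 allows up to 3 counts per library and most values lie at or under that limit, which covers counting error only. Differences in them were not detectable at this depth.

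BMPR1A (chr10:86756596-86932825), the main type I receptor for BMP2 and BMP4, had 1710, 1666 and 1725 counts in Con, 1442, 1496 and 1517 in CPT, 1262, 1509 and 1167 in GTA+5-Aza and 1285, 1120 and 1146 in CPT+GTA+5-Aza. In CPM every primed library lay below every Con library, and every CPT+GTA+5-Aza library below every CPT library, while the highest GTA+5-Aza library, at 75.6 CPM, exceeded the lowest CPT library, at 73.6 CPM. The means were 84.4 ± 5.29 CPM in Con, 78.6 ± 4.65 in CPT, 69.6 ± 5.21 in GTA+5-Aza and 67.2 ± 3.34 in CPT+GTA+5-Aza. With CPT present the log2 fold change of -0.22 ± 0.08 did not pass (adjusted p = 0.0501). The log2 fold change without CPT was -0.28. The call with CPT present depended on the setting, with an adjusted p of 0.0305 by DESeq2 and 0.0447 by edgeR's likelihood ratio test, and 0.014 to 0.206 over all 21 alternatives.

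SMAD6 (chr15:66702236-66782849), the inhibitory SMAD that the pathway itself induces, had 240, 206 and 252 counts in CPT and 217, 153 and 128 in CPT+GTA+5-Aza. In Con it had 257, 243 and 182 counts, and in GTA+5-Aza 147, 150 and 191. Primed libraries were mostly the lower ones, but the groups overlapped in both comparisons. Its log2 fold change with CPT present was -0.40 ± 0.19 (adjusted p = 0.149), and without CPT it was -0.38. Without CPT replicate 2 the former was -0.53 (adjusted p = 0.0404).

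Of the ID factors, ID1 (chr20:31605283-31606515) had the smallest difference with priming of those tested. It had 5768, 6276 and 6613 counts in Con, 6144, 6959 and 5864 in CPT, 5458, 5821 and 5842 in GTA+5-Aza and 5750, 6098 and 5443 in CPT+GTA+5-Aza. The groups overlapped, at 308 ± 11.9, 333 ± 11.8, 304 ± 22.1 and 328 ± 21.8 CPM in that order. With CPT present the log2 fold change was -0.02, with a 95% interval of -0.15 to 0.10 (adjusted p = 0.839). The sign itself turned to 0.02 when counts were scaled by library size alone.

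ID2 (chr2:8678845-8684461), the family member known for its part in lymphoid and mammary development, was lower in primed cells. It had 2573, 2503 and 2433 counts in Con and 2491, 2827 and 2722 in CPT, against 1808, 2047 and 1707 in GTA+5-Aza and 1845, 1826 and 1573 in CPT+GTA+5-Aza. No primed library reached any unprimed one. The level was 142 ± 6.18 CPM in CPT and 99.2 ± 3.95 CPM in CPT+GTA+5-Aza, so that ID2 fell by 29.9% with a log2 fold change of -0.51 ± 0.07 (adjusted p = 6.97e-06). Without CPT the means were 124 ± 9.55 and 98.5 ± 3.49 CPM and the log2 fold change was -0.34. The difference between the log2 fold changes, -0.18 with a 95% interval of -0.38 to 0.02, did not pass (unadjusted P = 0.0782, adjusted p = 1). The antisense gene ID2-AS1 shares 145 exon bases with ID2, and the strand setting of the counting is not given in the sources used here, but ID2-AS1 had only 5 to 24 counts per library.

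ID3 (chr1:23557926-23559501) had 5659, 7367 and 5123 counts in CPT and 6627, 6538 and 5821 in CPT+GTA+5-Aza. The groups overlapped because CPT replicate 2, at 362 CPM, lay within the primed range of 350 to 371 CPM. The log2 fold change with CPT present was 0.18 ± 0.07 (adjusted p = 0.0943), and it was 0.28 without CPT replicate 2 (adjusted p = 0.00122). In Con ID3 had 5123, 6293 and 5955 counts, and in GTA+5-Aza 6061, 6177 and 6332, at 286 ± 15.5 and 330 ± 24.7 CPM, a log2 fold change of 0.21. Those groups did not overlap.

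ID4 (chr6:19837370-19842197), the family member often silenced with a methylated promoter in tumors, was almost absent from unprimed cells. It had 3, 0 and 1 counts in Con and 0 in all 3 CPT libraries, against 42, 26 and 41 in GTA+5-Aza and 40, 23 and 18 in CPT+GTA+5-Aza. Its level reached 1.95 ± 0.57 CPM in GTA+5-Aza and 1.51 ± 0.53 CPM in CPT+GTA+5-Aza, and the lowest primed library had 18 counts where the highest unprimed one had 3. With CPT present its mean in CPT+GTA+5-Aza was 9.49 times the CPT limit of 3 counts per library (adjusted p = 3.02e-05). ID4 passed the filter on low counts only through the primed libraries, so that p-value adds no support beyond the counts themselves. Without CPT, 109 counts stood against 4. Each Con library lay at or under that limit, and the GTA+5-Aza mean was 13.1 times the limit. The ratio of summed counts was 29.3, with a 95% interval of 11.1 to 109 that covers counting error only.

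The long noncoding gene LNC-LBCS (chr6:19323428-19839080), on the opposite strand, spans the ID4 start without sharing exon bases with ID4, and was looked at for its position after its values were seen. It had 35 to 74 counts per library in CPT and 105 to 150 in CPT+GTA+5-Aza, with no overlap. LNC-LBCS rose by a log2 fold change of 1.35 ± 0.24 with CPT present (adjusted p = 0.000275), and by 1.49 without CPT. Within 500 kb of NOG, 3 of 7 other genes tested passed with CPT present, TRIM25 (0.24) and AKAP1 (0.25) higher and COIL (-0.41) lower on the log2 scale. Within the same distance 7 of 18 passed around ID3, in both directions, 2 of 15 around BMPR1A, 1 of 13 around SMAD6, 1 of 10 around ID1, 1 of 3 around ID4, which is LNC-LBCS, and 0 of 3 around ID2 by edgeR's quasi-likelihood test, where 17.0% of all genes passed.

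Per kilobase of exon, the scale on which genes can be compared, ID1 and ID3 stood above every other listed gene of the pathway, ID2 lay nearer to TCF3, at 46.1 CPM per kb in Con, and ID4 was among the low genes. In Con the level of ID1 was 249.8 ± 9.68 CPM per kb, that of ID3 191.4 ± 10.4, that of ID2 56.2 ± 4.32, that of NOG 10.6 ± 0.93, that of BMPR1A 8.38 ± 0.52 and that of SMAD6 1.32 ± 0.27, and these neighbours did not overlap. ID4 followed at 0.018 ± 0.021 CPM per kb, and BMP2, BMP4 and GREM1 were at 0. In both primed groups the libraries of ID1 and ID3 overlapped on this scale, with means of 246.8 ± 17.9 and 220.7 ± 16.5 CPM per kb in GTA+5-Aza and 265.8 ± 17.7 and 240.1 ± 7.24 in CPT+GTA+5-Aza. NOG, at 24.5 ± 1.48 CPM per kb in CPT+GTA+5-Aza, then stood well above BMPR1A at 6.67 ± 0.33.

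The 4 ID genes summed to 497 ± 10.3 CPM per kb in Con, 547 ± 34.6 in CPT, 513 ± 33.1 in GTA+5-Aza and 551 ± 25.6 in CPT+GTA+5-Aza. The share of ID2 in that sum was 11.7% ± 1.19 in CPT and 8.13% ± 0.26 in CPT+GTA+5-Aza, and the share of ID3 was 38.7% ± 2.63 and 43.6% ± 0.85. ID4 made up 0.07% ± 0.03 of the sum in CPT+GTA+5-Aza. ID1 and ID3 together made up most of the ID RNA in every group.

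**Figure D2:**
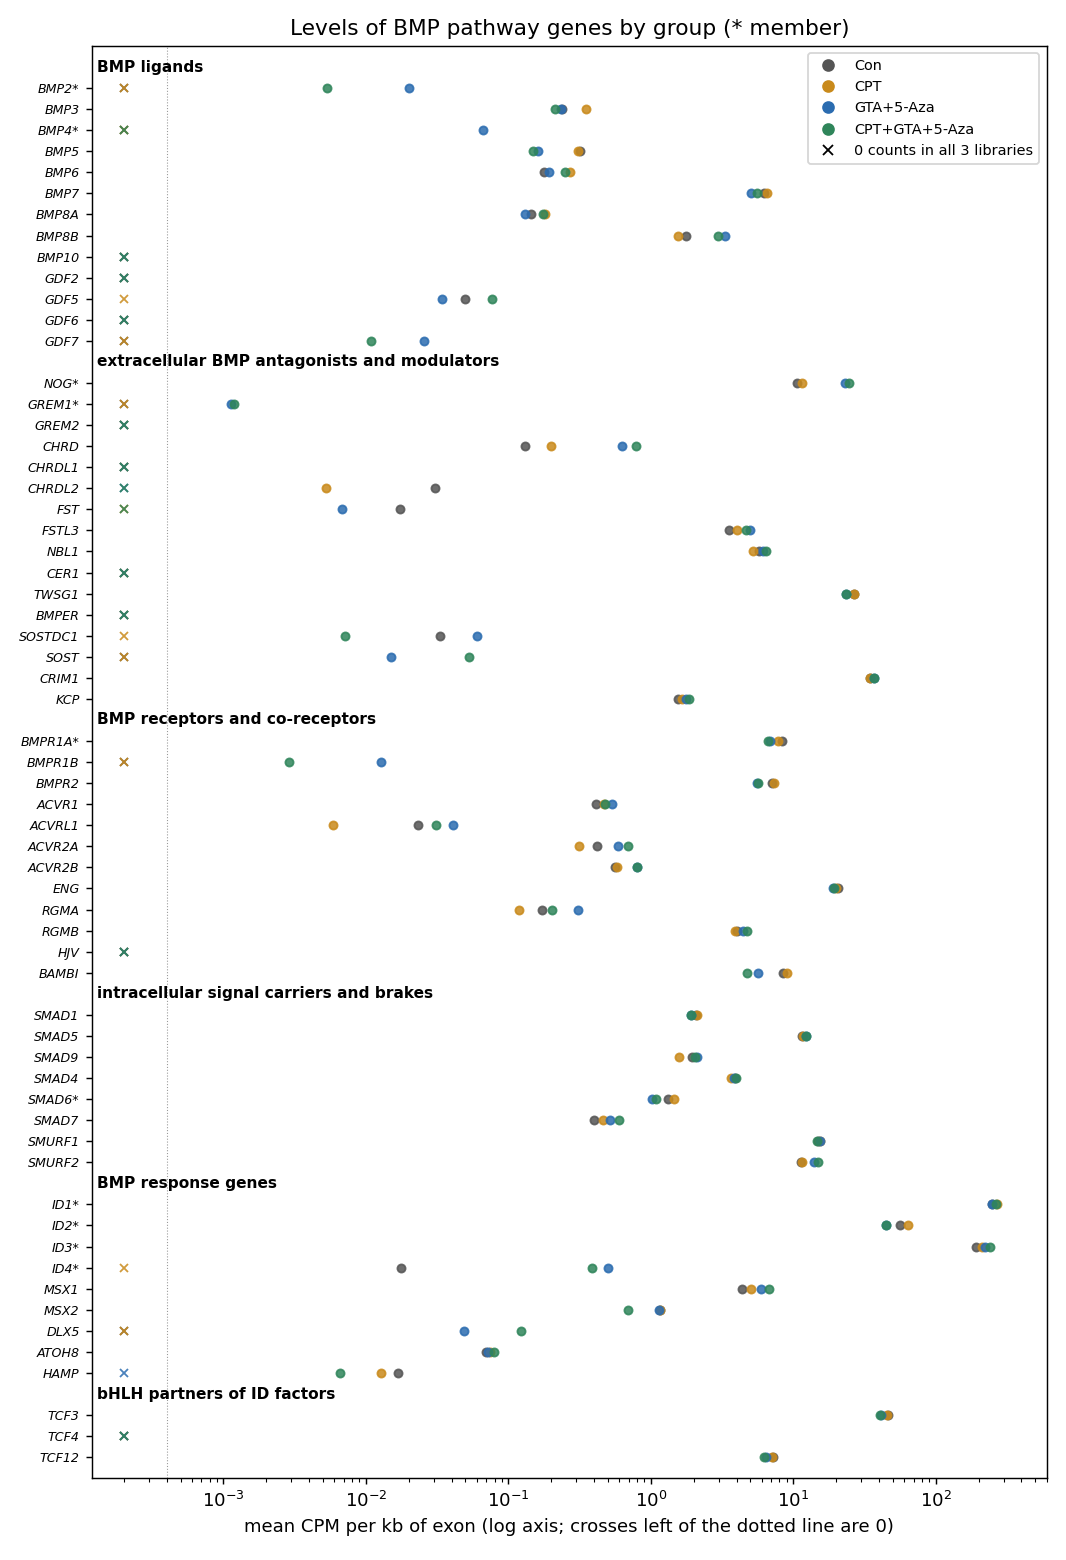
Mean CPM per kb of exon (horizontal axis, logarithmic) of the 61 listed pathway genes in the 4 groups, ordered by role, with an asterisk for the 10 genes described here, and crosses left of the dotted line for 0 counts in all 3 libraries. ID1 and ID3 lie between 191 and 270.4 CPM per kb, and most BMP ligands lie below 1.

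The rest of the pathway was taken from a list of 51 further genes by role, of which 32 were tested and 9 had no count in any library. With CPT present 6 of the 32 passed, 4 higher and 2 lower, which is 18.8% beside 17.0% of all genes. Their median log2 fold change was 0.07, and that of all genes 0.01. A count of 6 was also found without CPT, and the count with CPT present became 10 without CPT replicate 2, when 21.3% of all genes passed. Among ligands 1 of 6 tested passed, BMP8B, which went from 138, 156 and 133 counts in CPT to 258, 243 and 254 in CPT+GTA+5-Aza, with no overlap (log2 fold change 0.93 ± 0.14, adjusted p = 3.22e-05). BMP8B has a near-identical copy, BMP8A, between which reads may have been split. BMP7, the most abundant ligand per kilobase, was at 35.7 ± 5.69 CPM in CPT and 30.4 ± 2.46 in CPT+GTA+5-Aza, and did not pass (adjusted p = 0.176).

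Among the 6 further antagonists and modulators tested, 1 passed. CHRD, which encodes chordin, an antagonist that binds BMP ligands as noggin does, had 20, 48 and 9 counts in CPT and 87, 78 and 110 in CPT+GTA+5-Aza. The groups did not overlap, and CHRD rose by a log2 fold change of 1.97 ± 0.38 (adjusted p = 0.000586), or 2.71 without CPT replicate 2. Its level of 0.79 CPM per kb in CPT+GTA+5-Aza was far under that of NOG. FSTL3, a follistatin-like binder of activins, passed without CPT (log2 fold change 0.49, adjusted p = 0.0177) but not with CPT present (0.21, adjusted p = 0.379), and the call without CPT was lost when Con replicate 3, GTA+5-Aza replicate 1 or GTA+5-Aza replicate 3 was left out.

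Of 8 further receptors and co-receptors tested, 3 passed with CPT present. BMPR2, the type II receptor dedicated to BMP, had 1664, 1700 and 1854 counts in CPT and 1407, 1250 and 1118 in CPT+GTA+5-Aza, and fell by 0.37 ± 0.08 on the log2 scale (adjusted p = 0.0011). BAMBI, a decoy receptor without a kinase domain, went from 357, 406 and 331 counts to 192, 195 and 147 and fell by 0.93 ± 0.13 on the log2 scale (adjusted p = 1.91e-05). ACVR2A, a type II receptor shared with activin, rose with 35, 44 and 36 counts in CPT and 95, 87 and 55 in CPT+GTA+5-Aza (log2 fold change 1.14 ± 0.27, adjusted p = 0.00375). Without CPT it did not pass (0.49, adjusted p = 0.217), and for ACVR2A the difference between the comparisons did not pass (adjusted p = 1).

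Of 7 further intracellular genes 1 passed, SMURF2, a ubiquitin ligase for SMADs and receptors, with 1577, 1562 and 1560 counts in CPT and 2246, 1767 and 1678 in CPT+GTA+5-Aza (log2 fold change 0.37 ± 0.08, adjusted p = 0.00205). Its call without CPT was lost when Con replicate 3 or GTA+5-Aza replicate 1 was left out. SMAD1, SMAD5, SMAD9 and SMAD4, the carriers of the signal, did not pass in either priming comparison. Nor did the 3 further response genes tested, MSX1, MSX2 and ATOH8. Of the E proteins that ID factors bind, TCF3 was at 288 ± 25.6 CPM in CPT and 259 ± 11.97 in CPT+GTA+5-Aza (log2 fold change -0.15 ± 0.07, adjusted p = 0.149), and TCF4 was among the genes at 0.

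**Figure D3:**
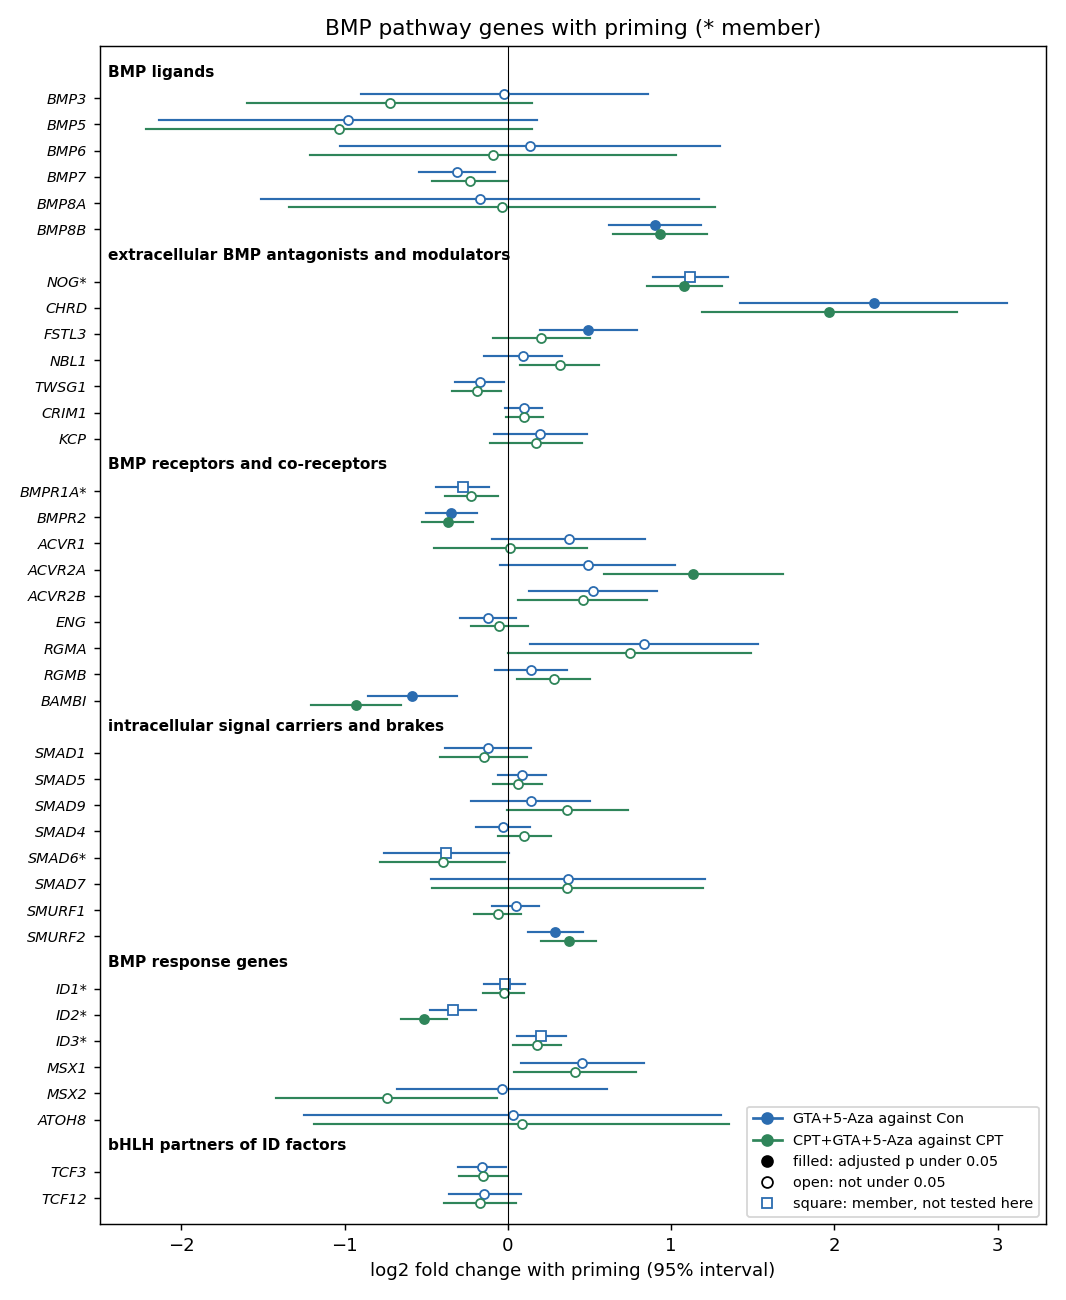
Log2 fold changes (horizontal axis) of the pathway genes tested, in GTA+5-Aza against Con (blue) and CPT+GTA+5-Aza against CPT (green), with 95% intervals. Filled circles have an adjusted p under 0.05, squares mark listed genes whose values without CPT were already known, and ID4 is left out because all CPT libraries were at 0; NOG and CHRD lie to the right and BMPR2, BAMBI and ID2 to the left of 0 in both comparisons.

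Calcipotriol changed none of the 7 genes past the adjusted threshold, without or with priming, and 0 genes of 17123 passed by edgeR's quasi-likelihood test. Before adjustment, 733 genes (4.28%) had a P under 0.05 with CPT in unprimed cells, and 464 (2.71%) had one in primed cells. By edgeR's likelihood ratio test 4 and 3 genes passed and by DESeq2 4 and 1, none of them among the 10. Among the 7 genes, 3 had an unadjusted P under 0.05 in unprimed cells and 0 in primed cells. ID2 was at 135, 119 and 118 CPM in Con and 137, 139 and 149 in CPT, a log2 fold change of 0.19 ± 0.07 (adjusted p = 1) without overlap. ID3 had a log2 fold change of 0.15 ± 0.07 (adjusted p = 1), which was 0.05 without CPT replicate 2. The third was ID4, at 4 counts in Con and 0 in CPT, both at or under the limit that a count of 0 allows, so no fold is given.

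With CPT, the log2 fold change in primed cells was 0.08 for NOG (95% interval -0.14 to 0.31), 0.11 for ID1 (-0.02 to 0.23), 0.01 for ID2 (-0.13 to 0.15) and 0.12 for ID3 (-0.03 to 0.27). In unprimed cells it was 0.12 for NOG (-0.11 to 0.35) and 0.11 for ID1 (-0.01 to 0.24). The interaction of CPT and priming passed for none of the 7 genes and for 0 genes in all by edgeR's quasi-likelihood test, where 451 genes (2.63%) had an unadjusted P under 0.05, none of the 7 among them, 3 genes passed by the likelihood ratio test and 0 by DESeq2. In CPT+GTA+5-Aza against Con, which shares its Con and CPT+GTA+5-Aza libraries with other comparisons, the log2 fold changes were 1.202 for NOG, -0.33 for ID2, -0.33 for BMPR1A, 0.33 for ID3, 0.09 for ID1 and -0.27 for SMAD6. By edgeR's quasi-likelihood test 5 of the 7 passed, NOG, ID3 and ID4 higher and ID2 and BMPR1A lower, beside 16.8% of all genes. That count describes the genes, since differences from Con were known when they were listed. ID4 entered it only through the primed libraries, and no fold is given for it because Con lay at or under the limit.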

How the data were processed

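RNA-seq of 12 MiaPaca2 libraries in 4 groups of 3 was analysed. Per the methods, paired-end reads were cleaned by Trim Galore, mapped to GRCh38 by HISAT2 2.2.1 and assigned to genes by HTSeq. The authors deposited raw counts per gene, not normalized. The annotation release and strand setting are not given in the sources used here, and symbols, exon lengths and positions came from GENCODE v44, which holds 52181 of 63677 identifiers. Groups came from the sample labels.

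In R 4.3.3 with edgeR 4.0.16, filterByExpr on the 4 groups kept 17123 genes. TMM scaling, glmQLFit and glmQLFTest were run on all 12 libraries in 1 fit (common dispersion 0.0101), with Benjamini-Hochberg adjustment over all genes and a threshold of 0.05. CPM used the TMM-scaled library sizes. Alternatives were the likelihood ratio test, DESeq2 1.42.0, other scalings and filters, only the groups compared, the replicate number as a block, and leaving out each library. The test was checked on simulated counts.

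The members and lists were chosen with earlier results of these data known. Genes named are the 10 members, listed pathway genes with an adjusted p under 0.05 in a priming comparison, the 3 genes most correlated with NOG (1 of them is not reported here), markers CYP24A1 and VDR. BMP7, FSTL3's second comparison, the SMADs that carry the signal, the response genes and E proteins, LNC-LBCS, ID2-AS1 and the neighbours of NOG were named after their values were seen. The SMAD6 stretch is shown because its match was found. Promoter windows came from RefSeq on GRCh38.p14. Total counts of 16162490 to 21224665 limit precision for genes with few counts.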

Additional observations from a re-analysis of the deposited data

How the results depend on the processing

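Under 21 alternatives per priming comparison, the calls of NOG (log2 fold change 0.98 to 1.22 with CPT present), ID2 (-0.55 to -0.47), ID4, BMP8B, CHRD, BMPR2 and BAMBI were kept, and those of LNC-LBCS too, in settings chosen after seeing the data for the latter 5. ID4 passed the main filter on low counts only through the primed libraries, so its kept calls add no support beyond the counts. Without CPT the kept calls describe the 10 genes and do not test them. The number of the 7 genes called ran from 3 to 5 without CPT and from 3 to 6 with CPT present when single libraries were left out, and that of the other pathway genes from 4 to 9 and from 6 to 10. The call of ID3 without CPT was lost in 11 of 21 alternatives, among them DESeq2 (adjusted p = 0.0594), and that of BMPR1A without CPT in 3 (adjusted p up to 0.0913). With CPT present BMPR1A passed in 6 of 21 (adjusted p 0.014 to 0.206 over all) and ID3 in 3 (0.00122 to 0.439). ID1 turned to a log2 fold change of 0.023 without CPT and 0.015 with it when counts were scaled by library size alone, and ran from -0.079 to 0.013 and from -0.066 to 0.028 when single libraries were left out (0.011 without Con replicate 3). The cause was not tested. With the replicate number as a block, 5 of the 7 genes were called without CPT, 3 with CPT present and 0 for CPT or the interaction, with 6 other pathway genes in each priming comparison, and no call changed. The block was not the main design because same-numbered libraries correlated at -0.377 to 0.42, over 0.1 in only 3 of 18 pairs. Those 3 pairs joined replicate 2 of Con, CPT and CPT+GTA+5-Aza (0.163 to 0.42), while GTA+5-Aza replicate 2 was at -0.377 to -0.164 with these. Libraries with different numbers ran from -0.383 to 0.366. Deviations within a group are tied to each other, so these values cannot tell whether same-numbered libraries shared a batch. Depth limits BMP2, BMP4, GREM1 and ID4 in unprimed cells.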
